A study of Mus musculus with 8 samples.

Results

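The FGF and ERK feedback genes are the ligand gene Fgf4, the Ets factor genes Etv4 and Etv5, the Sprouty genes Spry2 and Spry4, and the dual specificity phosphatase genes Dusp4, Dusp5, Dusp6, Dusp14 and Dusp16. They were taken by mouse symbol, and all 10 were found among the 47069 Ensembl genes of the full tables and among the 15669 genes tested. The RNA-seq libraries, of poly-A RNA, came from embryonic stem (ES) cells of C57BL/6 mice. The cells grew on a layer of mitomycin-inactivated embryonic fibroblasts, with serum and leukemia inhibitory factor in the medium, so fibroblast RNA can be present. The 8 libraries form 4 groups of 2, namely wild type cells (WT) and 3 kinds of cell edited with Cas9, which lack Pcgf3 (Pcgf3KO), Pcgf5 (Pcgf5KO) or both genes (DKO) by their labels. The labels do not say how many clones each group holds or that replicates came from separate cultures, so p-values measure the spread between these libraries, which may be technical.

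FGF4 is secreted by ES cells and acts on FGF receptors of the same cells. The receptors drive Ras, the Raf and MEK kinases and finally the kinase ERK, which in ES cells favours exit from the naive state. ERK switches on its own inhibitors. Sprouty proteins act between receptor and ERK, the dual specificity phosphatases remove phosphate from MAP kinases, and Etv4 and Etv5 are Ets transcription factors of the PEA3 family whose genes respond to FGF. These transcripts are therefore widely read as a gauge of pathway output, while Fgf4 itself is also driven by the pluripotency factors Oct4 and Sox2. Pcgf3 and Pcgf5 encode subunits that define variant forms of Polycomb repressive complex PRC1, which modifies histone H2A.

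The WT replicate 1 table lists 17.2% of the genes and, of the members, holds Etv5 only. Levels are therefore given as CPM (a gene's count scaled to a common library size) over the 7 full libraries, whose totals ran from 12652616 to 19923964 counts, and WT is 1 library for 9 of the 10 members. In the test WT was assumed to vary like the other groups. The WT library is shared by the 3 comparisons of a knockout with WT, so these are not independent of each other. The DKO libraries lay further apart than the other replicates, with a chi-square per gene of 19.1 against 3.34 in Pcgf3KO and 1.87 in Pcgf5KO, so DKO results are given with each library alone as well. Pcgf3 was at 109.7 CPM in WT and between 60.5 and 66.1 in Pcgf3KO, and Pcgf5 was at 20.7 in WT and between 9.06 and 12.3 in Pcgf5KO, so both transcripts were still present. In DKO Pcgf3 was at 86.6 and 67.2 CPM and Pcgf5 at 13.5 and 13.9, where Pcgf3 in Pcgf5KO was at 92.3 and 94.1. Pcgf3 in the library labelled DKO replicate 1 was thus nearer to Pcgf5KO than to Pcgf3KO. Whether this goes against that label cannot be told from these levels, and DKO stands here for the libraries labelled so. The labels do not say which part of either gene was removed, and reads from the rest of a transcript would still be counted. ES cell markers summed to between 2770 and 3483 CPM in the 7 libraries, led by Tdgf1, Dppa5a, Utf1 and Esrrb.

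In the edited cells Fgf4 and Etv5 were higher than in WT, and Dusp6 was lower, in all 3 comparisons with WT. Dusp16 was lower in Pcgf5KO and DKO, Spry4 in Pcgf5KO, and Dusp5 and Dusp14 in DKO. Etv4, Dusp4 and Spry2 passed in none of the 3 in this fit. All 6 edited libraries lay below the WT library for 7 members and above it for 2, Fgf4 and Etv5. Among all tested genes 19.5% had all 6 edited libraries below and 18.8% had all 6 above. The plot of levels by library shows the 10 genes.

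**Figure D1:**
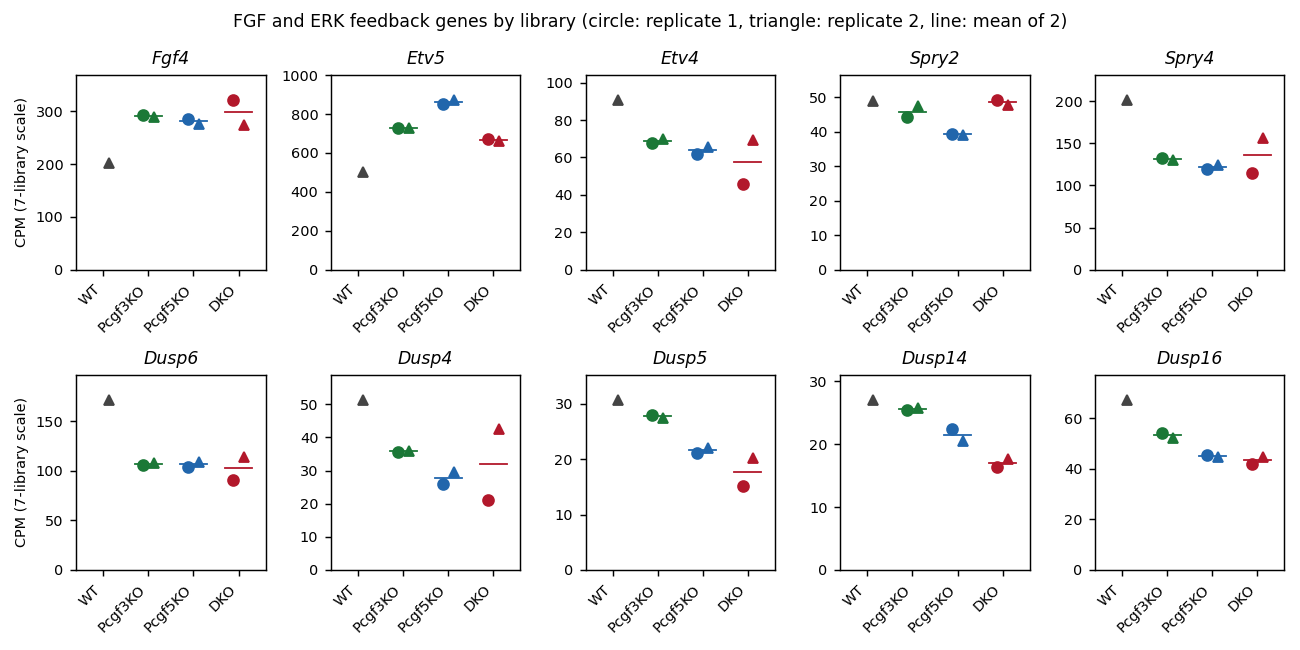
Level of each of the 10 genes (y axis, CPM from 0) in the 7 full libraries, by group (x axis). Circles are replicate 1, triangles replicate 2 and lines the mean of 2. Fgf4 and Etv5 sit higher in all 6 edited libraries than in WT, Spry4, Dusp4, Dusp5, Dusp6, Dusp14, Dusp16 and Etv4 sit lower, and the DKO replicates are far apart for Dusp4 and Etv4.

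Markers of several other cell types were lower in the edited libraries, as 7 members were. Feeder fibroblast markers, led by Tagln, Col5a1, Mmp2 and Thy1, summed to 233 CPM in WT and 130 to 177 in edited libraries, and of 18 tested 0 were higher and 5, 1 and 5 lower in Pcgf3KO, Pcgf5KO and DKO. Trophectoderm markers, led by Krt8, Krt18, Hand1 and Gata3, summed to 748 CPM in WT and 139 to 315 in edited libraries, with the library labelled DKO replicate 1 lowest and 3 of 6 lower in each comparison. Neuroectoderm markers, led by Olig2, Nes, Pax6 and Sox1, summed to 126 CPM in WT and 69.5 to 90.6 in edited libraries. Endoderm markers (Dab2, Gata4, Sox7 and Sox17 first) summed to 15.0 CPM in WT and 6.15 to 11.0 in edited libraries, and 1 of 5 was lower in each comparison. Primitive streak markers (Eomes, Mixl1, T and Mesp1 first) summed to 6.43 CPM in WT, to more in 5 of the 6 edited libraries (8.11 to 10.3), and to 5.69 in the library labelled DKO replicate 1, and 0 of 3 were called. In these lists 0 markers were at 0 in all libraries. In bulk RNA fewer cells of a type and less RNA per cell cannot be told apart, and the part of these cells in the members' falls was not tested. ES cell markers were higher or did not pass, with 1, 3 and 1 of 9 called higher and 0 lower, and they sum to less in WT than in any edited library.

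The start regions of the 4 members called in at least 2 of the comparisons with WT are shown, to set the genes that rose (Fgf4 and Etv5) beside those that fell (Dusp6 and Dusp16). They come from RefSeq (GRCm38.p6), each read 5′ to 3′ on the gene's strand and cut to bases upstream of the start in RefSeq and in the tables. Capitals mark a CCAAT box (CCAAT or ATTGG) or a GC box (GGGCGG or CCGCCC).
Fgf4, chr7:144861266-144861385, plus strand: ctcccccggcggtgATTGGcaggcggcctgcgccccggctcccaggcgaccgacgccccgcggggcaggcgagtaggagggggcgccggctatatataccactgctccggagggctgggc
Etv5, chr16:22439720-22439820, minus strand: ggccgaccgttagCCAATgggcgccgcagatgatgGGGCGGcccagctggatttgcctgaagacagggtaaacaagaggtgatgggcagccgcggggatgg
Dusp6, chr10:99263111-99263230, plus strand: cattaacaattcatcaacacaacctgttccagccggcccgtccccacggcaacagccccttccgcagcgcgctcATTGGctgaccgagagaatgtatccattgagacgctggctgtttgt
Dusp16, chr6:134792629-134792748, minus strand: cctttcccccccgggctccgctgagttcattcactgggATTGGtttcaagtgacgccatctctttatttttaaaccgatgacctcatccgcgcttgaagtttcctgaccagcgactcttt

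Each of the 4 sequences holds a CCAAT box. In windows of 300 bases (250 before and 50 after the start), 7 members were matched, with 2 starts for Etv5. Of these 8 windows 5 hold a CCAAT box and 5 a GC box, against 37.4% and 35.7% of 32851 windows in the table. The windows of Dusp5 and Dusp14, which were lower in DKO, and of Spry2 hold no CCAAT box, and those of Dusp6, Spry2 and the other Etv5 start hold no GC box. On either strand 0 of the 8 hold the Ets letters CCGGAAG (8.86% of all windows), the AP-1 letters TGACTCA (5.20%), the CRE letters TGACGTCA (1.79%) or TATAAA (13.6%). The 8 windows are rich in CpG, with an observed over expected ratio from 0.727 to 1.02, where all windows have a median of 0.384 and an upper quartile of 0.750. These matches describe letters in the windows and were not tied to the changes by a test.

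The levels span a wide range between genes. Per kilobase of exon, the median over the 7 libraries was 178 CPM for Etv5 and 89.6 for Fgf4. Dusp6 (34.4), Spry4 (27.5), Spry2 (22.7) and Etv4 (21.9) followed. Dusp4 (13.1), Dusp14 (11.6), Dusp5 (8.93) and Dusp16 (5.85) were lowest. The ranges of Etv5, 122 to 213, and of Fgf4, 63.2 to 101, did not overlap, nor did that of Fgf4 with that of Dusp6, 29.0 to 54.6. Below Dusp6, Spry4 (24.2 to 42.4) stayed above Spry2 (18.8 to 23.6), and the other neighbours in this order overlapped in range. Per kilobase Dusp6 was the most abundant of the 5 phosphatase transcripts in each library.

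Fgf4 (chromosome 7, 144861386 to 144865243, mm10) encodes the ligand. It measured 202 CPM in the WT library, 294 and 290 in the libraries labelled Pcgf3KO, 286 and 277 in those labelled Pcgf5KO, and 322 and 274 in those labelled DKO. Every edited library was above WT, and the DKO pair spanned the levels of both single knockouts. Against WT the log2 fold change was 0.53 ± 0.11 (SE) in Pcgf3KO (adjusted p = 0.0367), 0.48 ± 0.11 in Pcgf5KO (adjusted p = 0.0467) and 0.56 ± 0.11 in DKO (adjusted p = 0.0262), that is 1.40-fold to 1.48-fold. The Pcgf3KO and Pcgf5KO calls were lost when libraries were scaled by their totals alone, and that of Pcgf5KO also with DESeq2 size factors.

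Etv5 (chromosome 16, 22381309 to 22439719) is the only member with both WT libraries. On the scale of the genes listed in all 8 tables the WT libraries had 2753 and 2833 CPM, the Pcgf3KO libraries 4103 and 4116, the Pcgf5KO libraries 4771 and 4883, and the DKO libraries 3786 and 3735. The 4 groups did not overlap, with WT lowest, then DKO, then Pcgf3KO, and Pcgf5KO highest. The share of all genes that separate so was not counted. In the 7-library fit Etv5 rose by a log2 fold change of 0.54 ± 0.08 in Pcgf3KO (adjusted p = 0.00962), 0.78 ± 0.08 in Pcgf5KO (adjusted p = 0.00193) and 0.41 ± 0.08 in DKO (adjusted p = 0.0267). With 8 libraries the values were 0.56 (adjusted p = 0.000466), 0.79 (adjusted p = 0.000134) and 0.43 (adjusted p = 0.0025). In that fit 5.51%, 8.62% and 8.11% of 2702 genes were called in either direction. The rise in Pcgf5KO was the one member call that passed whichever edited library was left out, with adjusted p up to 0.0429.

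Etv4 (chromosome 11, 101769742 to 101785371), the paralog of Etv5, lay on the other side. It was at 90.8 CPM in WT. The Pcgf3KO libraries had 67.9 and 70.1 CPM, the Pcgf5KO libraries 61.9 and 65.8, and the DKO libraries 45.8 and 69.1. Each edited library was below WT, but no comparison passed in this fit, with log2 fold changes of −0.40 ± 0.19 (adjusted p = 0.357), −0.51 ± 0.19 (adjusted p = 0.19) and −0.66 ± 0.19 (adjusted p = 0.105). DESeq2 called Etv4 lower in DKO (−0.67, adjusted p = 0.0304), and edgeR without the filter on low counts did so in Pcgf5KO (adjusted p = 0.0033) and DKO (adjusted p = 1.88e-05). With only the groups compared in the fit, edgeR called Etv4 lower in Pcgf3KO (−0.40) and Pcgf5KO (−0.51) and did not in DKO (−0.66). Many more genes were called in Pcgf3KO and Pcgf5KO in that fit (counts below). As a ratio of CPM within a library, Etv5 to Etv4 was 5.53 in WT. It was 10.7 and 10.4 in the Pcgf3KO libraries, 13.7 and 13.3 in the Pcgf5KO libraries, and 14.6 and 9.55 in the DKO libraries. The ratio was lowest in the WT library, which follows from Etv5 lying above WT and Etv4 below it. It differed most between the DKO replicates.

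Among the Sprouty genes, Spry4 measured 202 CPM in the WT library, 132.5 and 130.7 in the libraries labelled Pcgf3KO, 120 and 125 in those labelled Pcgf5KO, and 115 and 157 in those labelled DKO. All edited libraries were below WT, and DKO replicate 2 was the closest to it. Spry4 fell in Pcgf5KO (log2 fold change −0.72 ± 0.15, adjusted p = 0.0374) and did not pass in Pcgf3KO (−0.62 ± 0.15, adjusted p = 0.0703) or DKO (−0.57 ± 0.15, adjusted p = 0.0797). DESeq2 called it lower in both (−0.62, adjusted p = 0.0107, and −0.58, adjusted p = 0.0194), as did edgeR without the filter. Spry2 (chromosome 14, 105891949 to 105896819) was at 48.9 CPM in WT. The Pcgf3KO libraries had 44.3 and 47.3 CPM, the Pcgf5KO libraries 39.3 and 39.1, and the DKO libraries 49.2 and 47.7. Its DKO libraries lay on both sides of WT and only the Pcgf5KO pair stood below all others, with a log2 fold change of −0.32 ± 0.11 against WT that did not pass (adjusted p = 0.161).

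Dusp6 (chromosome 10, 99263231 to 99267488) encodes a cytoplasmic phosphatase with a preference for ERK. It measured 171 CPM in the WT library, 105.5 and 107.6 in the libraries labelled Pcgf3KO, 104 and 109 in those labelled Pcgf5KO, and 91.0 and 114 in those labelled DKO. The edited groups overlapped with each other and none reached WT. Dusp6 fell by 0.68 ± 0.13 on the log2 scale in Pcgf3KO (adjusted p = 0.0249), by 0.68 ± 0.13 in Pcgf5KO (adjusted p = 0.0265) and by 0.74 ± 0.13 in DKO (adjusted p = 0.017), which left 0.60 to 0.62 of the WT level. These calls held under all 6 other ways of fitting the 7 libraries. Each was lost when any Pcgf3KO or Pcgf5KO library was left out. The ratio of Fgf4 to Dusp6, in CPM within a library, was 1.18 in WT and between 2.40 and 3.54 in the edited libraries. A higher ratio there follows from Fgf4 lying above WT and Dusp6 below it.

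Dusp16 (chromosome 6, 134715468 to 134792625) encodes a phosphatase that acts mainly on the stress kinases JNK and p38. It was at 67.2 CPM in WT. The Pcgf3KO libraries had 54.4 and 52.2 CPM, the Pcgf5KO libraries 45.6 and 44.8, and the DKO libraries 42.0 and 44.8. Pcgf3KO stood between WT and the other edited groups. Dusp16 fell in Pcgf5KO (−0.57 ± 0.11, adjusted p = 0.0267) and DKO (−0.63 ± 0.11, adjusted p = 0.015) and did not pass in Pcgf3KO (−0.33 ± 0.11, adjusted p = 0.15).

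Dusp5 and Dusp14 shared an order of groups in which WT was highest, then Pcgf3KO, then Pcgf5KO, then DKO. Dusp5 (chromosome 19, 53529109 to 53542431), a nuclear ERK phosphatase gene, measured 30.6 CPM in the WT library, 28.1 and 27.5 in the libraries labelled Pcgf3KO, 21.1 and 22.1 in those labelled Pcgf5KO, and 15.1 and 20.2 in those labelled DKO. Dusp14 (chromosome 11, 84048041 to 84069261), which encodes a small phosphatase without the usual kinase-docking domain, was at 27.0 CPM in WT. The Pcgf3KO libraries had 25.4 and 25.7 CPM, the Pcgf5KO libraries 22.5 and 20.5, and the DKO libraries 16.4 and 17.6. For both genes the 4 groups, with WT as 1 library, did not overlap, and the share of all genes that separate so was not counted. Against WT both fell in DKO, with log2 fold changes of −0.80 ± 0.17 for Dusp5 (adjusted p = 0.0348) and −0.66 ± 0.13 for Dusp14 (adjusted p = 0.0292). In Pcgf3KO the values were −0.14 (adjusted p = 0.747) and −0.08 (adjusted p = 0.832), and in Pcgf5KO −0.51 (adjusted p = 0.149) and −0.32 (adjusted p = 0.222). A gene on the other strand, AC137853.2, overlaps Dusp5 exons by up to 547 bases, and the library kit does not mark strand.

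Dusp4 (chromosome 8, 34807297 to 34819894), a nuclear phosphatase gene, measured 51.2 CPM in the WT library, 35.8 and 35.9 in the libraries labelled Pcgf3KO, 25.9 and 29.5 in those labelled Pcgf5KO, and 21.2 and 42.6 in those labelled DKO. All edited libraries were below WT, and the DKO replicates, which differed 2.01-fold, were the lowest and the highest of the 6. No comparison with WT passed in this fit. The log2 fold changes were −0.52 ± 0.29 (adjusted p = 0.446), −0.89 ± 0.30 (adjusted p = 0.154) and −0.68 ± 0.29 (adjusted p = 0.244), and their standard errors were the widest of the 10 genes. Without the filter edgeR called Dusp4 lower in all 3 (adjusted p = 0.0149, 3.28e-07 and 0.00016). With only the groups compared in the fit, it was called lower in Pcgf3KO (−0.52) and Pcgf5KO (−0.90) and not in DKO (−0.69).

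Counted over the members, 2 were called higher and 1 lower in Pcgf3KO, against 1.08% and 1.28% of all tested genes (2.36% in either direction). In Pcgf5KO 2 were higher and 3 lower, against 1.31% and 1.68% (2.99% in either direction). In DKO 2 were higher and 4 lower, against 1.33% and 1.89% (3.22% in either direction). The median log2 fold change of the 10 was −0.24 in Pcgf3KO, −0.51 in Pcgf5KO and −0.64 in DKO, where all tested genes had medians of 0.0024, 0.0050 and 0.014. The members were chosen with results of these data known, so these counts describe them and test nothing. All member calls against WT other than that of Etv5 in Pcgf5KO, and the calls of Dusp14 and Etv5 between DKO and a single knockout below, were lost when any Pcgf3KO or Pcgf5KO library was left out, with highest adjusted p from 0.0649 (Dusp6 in DKO) to 0.382 (Etv5 in DKO against Pcgf5KO). The plot of fold changes shows the split of Fgf4 and Etv5 from the other 8 genes.

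**Figure D2:**
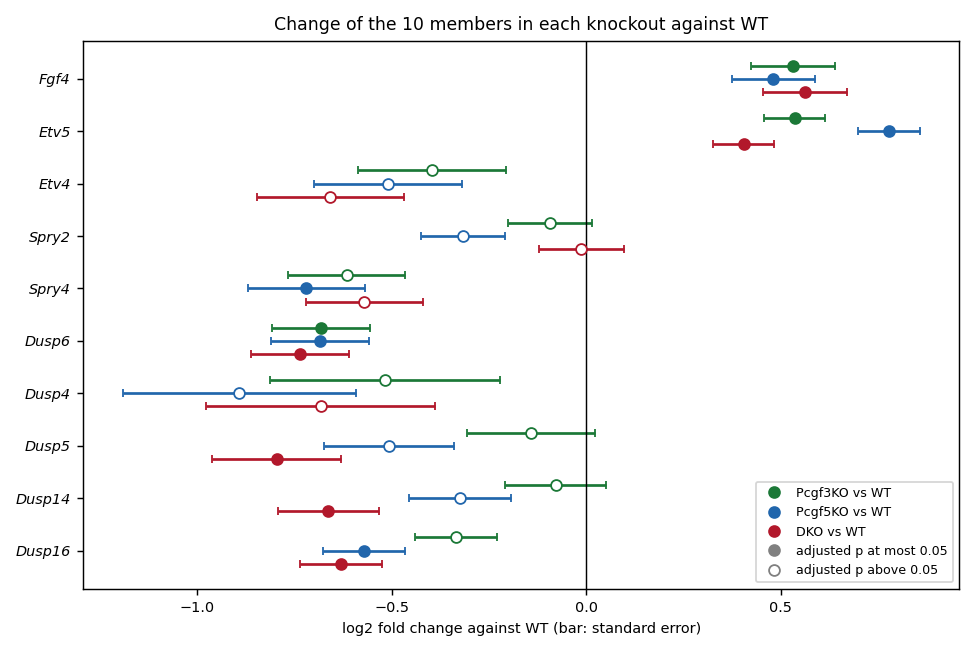
Log2 fold change of each gene against WT (x axis) in Pcgf3KO, Pcgf5KO and DKO, with the standard error as a bar. Filled points have an adjusted p of at most 0.05. Fgf4 and Etv5 are above 0 and filled in all 3 comparisons, Dusp6 is below 0 and filled in all 3, and Etv4, Spry2 and Dusp4 are never filled.

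How do the knockouts differ from each other in these genes? Between Pcgf5KO and Pcgf3KO edgeR called 0 of the 10, where 0.140% of all genes were called (0.0893% higher and 0.0511% lower). The share of all genes with an unadjusted p of at most 0.05 was not counted here, and 4 members (Etv5, Spry2, Dusp16 and Dusp5) had one. Of these, Etv5 stood at 0.24 ± 0.06 (adjusted p = 0.314) and Dusp5 at −0.37 ± 0.14 (adjusted p = 0.53). DESeq2 called 0 as well. With only these groups in the fit, edgeR called Dusp4 (−0.38, adjusted p = 0.0018) and Dusp5 (−0.37, adjusted p = 0.0047) lower in Pcgf5KO. It also called Spry2 (−0.23, adjusted p = 0.032) and Dusp16 lower, and Etv5 higher. Many more genes were called in that fit as well (count below). The 0 thus depends on which groups share the fit.

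Against Pcgf3KO, 1 member was lower in DKO, Dusp14 at −0.58 ± 0.11 (adjusted p = 0.0329), and 0 were higher. Of all genes 0.734% were called higher and 1.0% lower (1.74% in either direction). Dusp5 had a like value that missed the threshold (−0.65 ± 0.14, adjusted p = 0.0527). Against Pcgf5KO, 1 member was lower in DKO, Etv5 at −0.37 ± 0.06 (adjusted p = 0.0259), and 0 were higher. Of all genes 0.996% were called higher and 1.28% lower (2.28% in either direction). In the 8-library fit, where 2.37% of genes were called in either direction, the Etv5 value was −0.36 (adjusted p = 0.032). Against Pcgf3KO it was −0.13 (adjusted p = 0.305), where 0.518% of genes were called. The value against Pcgf5KO was −0.37 with an adjusted p of 0.0522 without WT replicate 2. Over all genes the calls in DKO were 115 higher and 157 lower against Pcgf3KO and 156 and 201 against Pcgf5KO, and 143 and 123, and 269 and 126, when libraries were scaled by totals alone.

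The interaction asks if the change in DKO equals the sum of the changes in the single knockouts. The WT level enters it with a sign opposite to that in each change against WT. In the 7-library fit WT is 1 library, so a deviation of that library would push the interaction and these changes in opposite directions. For Etv5 the sum of the single changes was larger than the change seen, with an interaction of −0.91 ± 0.10 (adjusted p = 0.0031), and −0.92 ± 0.09 with 8 libraries (adjusted p = 0.000483). It was the 1 member called of 10, and 3.79% of all genes tested were called, 278 of them higher (1.77%) and 316 lower (2.02%), or 366 and 232 when scaled by totals alone. With 8 libraries 6.92% of genes were called. Spry4 (0.76 ± 0.20, adjusted p = 0.0676), Dusp6 (0.63 ± 0.17, adjusted p = 0.073) and Fgf4 (−0.45 ± 0.14, adjusted p = 0.0974) did not pass. For Dusp14 (−0.26 ± 0.17, adjusted p = 0.395) and Dusp5 (−0.15 ± 0.22, adjusted p = 0.727) the estimates had the sign of a larger fall in DKO than the sum and did not pass either.

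The DKO libraries gave different sizes of change for several members. The library labelled DKO replicate 1 was lower than replicate 2 in 7 of 10 members, and was the lowest of all 7 libraries in the same number. Over all tested genes it was lower in 51.9% and the lowest of the 7 in 26.7%. The ratio of replicate 2 to replicate 1 was 2.01 for Dusp4, 1.51 for Etv4, 1.36 for Spry4, 1.34 for Dusp5 and 1.26 for Dusp6. For all tested genes the median of this ratio was 1.01, and its percentiles 5 and 95 were 0.521 and 1.67. It was 1.07 for Dusp14 and for Dusp16, 0.987 for Etv5, 0.971 for Spry2 and 0.853 for Fgf4.

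With DKO replicate 2 alone the log2 fold change of Dusp4 against WT was −0.27 (adjusted p = 0.0558), and with replicate 1 alone −1.27 (adjusted p = 1.21e-12). Etv4 was at −0.39 (adjusted p = 0.00028) and −0.98 (adjusted p = 6.26e-13) in the same fits, and Spry4 at −0.37 (adjusted p = 0.000144) and −0.81 (adjusted p = 2.57e-12). For Dusp6 the values were −0.58 (adjusted p = 3.34e-08) and −0.91 (adjusted p = 2.23e-13). These small p-values come from fits without the wide DKO pair, in which 2485 and 5379 genes were called against WT in place of 505, and the lone DKO library is assumed to vary like the other groups. Fgf4 (0.44 and 0.68), Etv5 (0.39 and 0.42), Dusp5 (−0.60 and −1.02), Dusp14 (−0.61 and −0.71) and Dusp16 (−0.58 and −0.68) kept their direction and their call with either library. The plot of DKO changes by library shows these values.

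**Figure D3:**
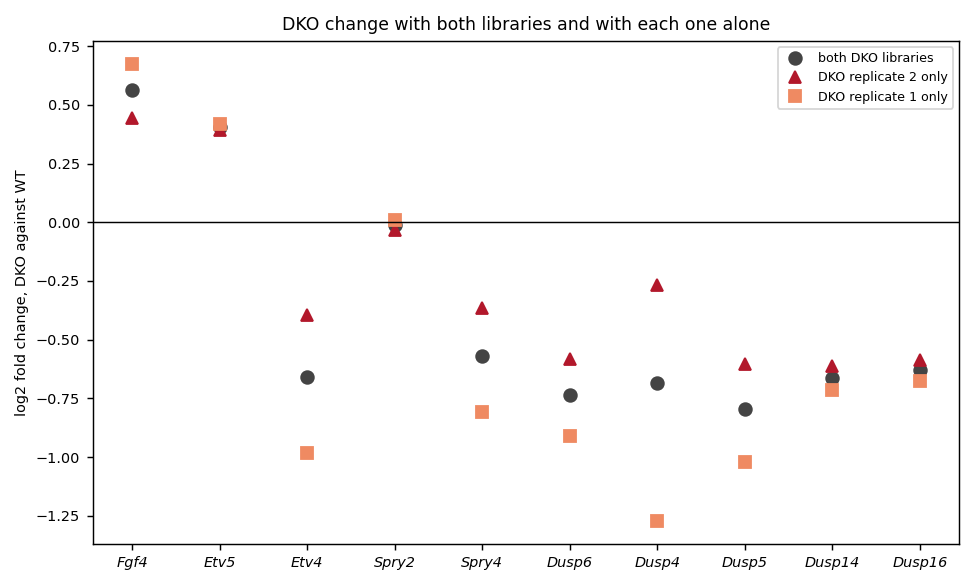
Log2 fold change of DKO against WT (y axis) for each gene with both DKO libraries (circles), with replicate 2 alone (triangles) and with replicate 1 alone (squares). The points nearly coincide for Etv5 and Spry2, lie close for Dusp14 and Dusp16, and spread from −0.27 to −1.27 for Dusp4.

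Against the single knockouts, the direction for several members turned with the DKO library used. Against Pcgf5KO, Dusp4 was at 0.63 with replicate 2 alone (adjusted p = 2.83e-06) and at −0.37 with replicate 1 alone (adjusted p = 0.00411). Against Pcgf3KO, Spry4 was at 0.25 (adjusted p = 0.00398) and at −0.20 (adjusted p = 0.0146). Neither gene passed with both libraries in the fit. By contrast Dusp14 was lower than in Pcgf3KO with either library, at −0.54 (adjusted p = 0.000492) and −0.64 (adjusted p = 1.7e-05).

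The rest of the pathway was read from a list chosen with earlier results of these data known, so its counts describe and test nothing. It holds 94 other genes, of which 91 were tested. Against WT 0 of these were higher in any of the 3 edited groups. In Pcgf3KO 5 were lower (5.49%), in Pcgf5KO 7 (7.69%) and in DKO 13 (14.3%). Over all tested genes 1.28%, 1.68% and 1.89% were called lower, and 1.08%, 1.31% and 1.33% higher. Their median log2 fold changes were −0.14, −0.14 and −0.18. Of the 11 genes of the kinase cascade 0 were called in each of these comparisons. Mapk3, which encodes the kinase ERK1, was between 65.4 and 89.0 CPM in the 7 libraries. Of the 8 other ligand genes tested 0 were called, and the 9 listed summed to between 20.3 and 28.2 CPM.

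The main FGF receptor genes did not pass. Fgfr1 was between 74.9 and 89.5 CPM and Fgfr2 between 26.0 and 39.2 in the 7 libraries, with adjusted p from 0.0712 (Fgfr2 in Pcgf5KO, −0.50 ± 0.12) to 0.907. Of 10 receptor and co-receptor genes 1 was lower in Pcgf3KO and in Pcgf5KO, the heparan sulfate proteoglycan gene Gpc4 (−0.50, adjusted p = 0.0465, and −0.74, adjusted p = 0.00949). Of 15 adaptor and Ras genes 1 was lower in DKO, the Ras activator gene Rasgrp1 (−0.85 ± 0.13, adjusted p = 0.00975).

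Of 18 other inhibitors and phosphatases tested, 1 was lower in Pcgf3KO and in Pcgf5KO and 3 in DKO. Errfi1, an inhibitor of the EGF receptor, was the one lower in all 3 (−0.85, adjusted p = 0.0145, −0.77, adjusted p = 0.0229, and −0.97, adjusted p = 0.00623). In DKO Dusp9, an ERK phosphatase gene, was lower (−0.77 ± 0.17, adjusted p = 0.0385), from 132 CPM in WT to 65.2 and 89.6, and so was Spred3 (−0.72, adjusted p = 0.049). Dusp9 did not pass in Pcgf3KO (−0.57, adjusted p = 0.118) or Pcgf5KO (−0.59, adjusted p = 0.104). Spry1, at 17.5 CPM in WT and 11.7 to 14.1 in edited libraries, did not pass (adjusted p from 0.122 to 0.203), and Spred1, Spred2 and Dusp7 had adjusted p of 0.317 or more.

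Of 29 target and effector genes tested, 3 were lower in Pcgf3KO, 5 in Pcgf5KO and 9 in DKO, with medians of −0.47, −0.33 and −0.52. Vgf, a neuropeptide precursor gene, had the smallest p in each (−1.98, −2.31 and −2.36), at 44.9 CPM in WT and 7.06 to 11.7 in edited libraries. The cytokine gene Lif was lower in Pcgf3KO (−1.04, adjusted p = 0.0147) and Pcgf5KO (−1.15, adjusted p = 0.0106), and the receptor gene Epha2 in Pcgf3KO (−0.63, adjusted p = 0.016) and DKO (−0.47, adjusted p = 0.0450). Epha4 (−1.04, adjusted p = 0.0331) and Ets1 (−1.30, adjusted p = 0.0447) were lower in Pcgf5KO, and Myc (−0.70, adjusted p = 0.0201), Plaur (−0.77, adjusted p = 0.0237) and Junb (−1.12, adjusted p = 0.0239) in DKO. Egr1, an immediate early gene that ERK switches on, was at 27.0 CPM in WT and 16.0 to 21.8 in edited libraries and did not pass (adjusted p from 0.0906 to 0.224). The plot of the pathway by role shows these genes.

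Between Pcgf5KO and Pcgf3KO edgeR called 0 of the 91. In DKO 4 were lower than in Pcgf3KO, namely Plaur (−1.02), Junb (−0.96), Bcl2l11 (−0.48) and Elk3 (−0.46), with adjusted p from 0.00502 to 0.0429. In DKO 5 were lower than in Pcgf5KO, namely Rasgrp1 (−0.81), Plaur (−0.67), Ccnd1 (−0.62), Myc (−0.57) and Shc1 (−0.37), with adjusted p from 0.0139 to 0.043. The interaction was above 0 for Vgf (1.94), Lif (1.58) and Gpc4 (0.86) and below 0 for Plaur (−0.91) and Shc1 (−0.61), with adjusted p from 0.00821 to 0.033.

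**Figure D4:**
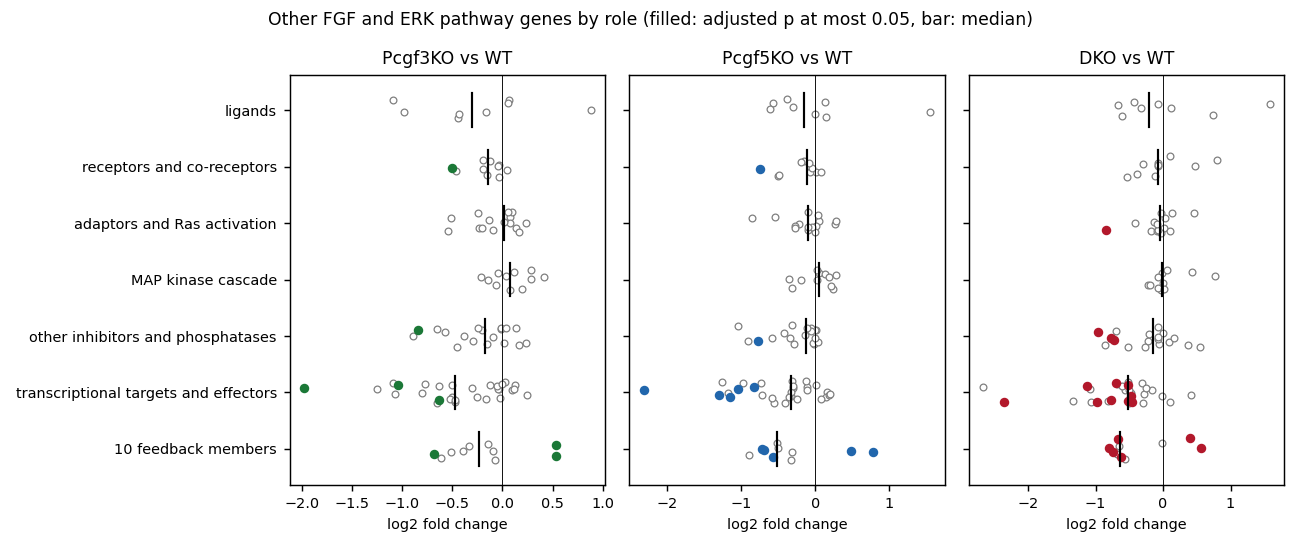
Log2 fold change against WT (x axis) of the other pathway genes, 1 point per gene, in rows by role, with the 10 feedback genes in the last row, for Pcgf3KO, Pcgf5KO and DKO. Filled points have an adjusted p of at most 0.05 and black bars are medians. The kinase cascade has 0 filled points, and the target row has 3, 5 and 9.

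Which transcripts had a pattern over the libraries like that of Dusp6 or Fgf4? Over the 7 libraries and 11011 genes compared, Reep4 (Pearson r = 0.995), B2m (0.994), Asphd2 (0.989), Pdha1 (0.988) and Pcyox1 (0.987) were most like Dusp6. Those most like Fgf4 were Ppfia4 (0.996), Pomt1 (0.989), Bnip3 (0.986), Dzip3 (0.985) and Slfn9 (0.985). The libraries share groups, WT is 1 point that stands apart, and the best of so many genes is high by selection, so these values only describe. Over the 6 edited libraries r was 0.904 to 0.977 for the first set and 0.878 to 0.996 for the second. Dusp6 and Fgf4 themselves were opposed, with r = −0.995 over 7 libraries and −0.958 over the 6 edited ones. Of these 6 the library labelled DKO replicate 1 was lowest for Dusp6 (91.0 CPM) and highest for Fgf4 (322 CPM), so the second value rests partly on 1 library. Dusp5 and Dusp14 ran together (0.942 and 0.924), while Etv5 and Etv4 did not (−0.457 and 0.244).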

How the data were processed

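The authors deposited 1 table per library with raw read counts for each Ensembl gene. The submitters' processing notes name HTSeq 0.6.0, TopHat2 2.0.12 and Cufflinks 2.2.1, in no stated role, and mm10 as the build. Annotation, strand setting and filters: not given in the sources used here. No batch is named in the labels. Of 47069 identifiers 46488 were matched to a symbol (GENCODE M21). The WT replicate 1 table breaks off after 8093 genes, and a gene missing from it has no WT replicate 1 value. The 7 full libraries were fitted in edgeR 4.0.16 (R 4.3.3) and compared by its quasi-likelihood test, with TMM, filterByExpr (99.93% of counts kept), group as the only term and 3 residual degrees of freedom. Called genes have p no higher than 0.05 after Benjamini-Hochberg adjustment over 15669 genes, and every adjusted p comes from edgeR unless DESeq2 (1.42.0) is named. The ± is a standard error. The test was checked on simulated data. These had the same spread in every group, so the check does not cover the wider DKO pair.

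Named genes are all members, pathway genes past the threshold (up to 4 of smallest p per role and comparison), 10 set pathway genes (1 of them is not reported here), the 4 most abundant markers of each list, and the 5 genes most alike to Dusp6 and to Fgf4 by r among genes of mean log2 CPM of at least 2. The members and lists were chosen with earlier results of these data known. Alternatives were other scalings, no filter, DESeq2, only the groups compared, a replicate block, 8 libraries, and each edited library left out.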

Additional observations from a re-analysis of the deposited data

Results flagged for a closer look

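Etv5 was singled out because its change in the libraries labelled DKO differed from the sum of its changes in the single knockouts. The interaction was −0.91 ± 0.10 on the log2 scale (edgeR, adjusted p = 0.0031), from single changes of 0.54 and 0.78 and a change of 0.41 in DKO. It was between −0.93 and −0.82 in the alternatives over the 7 full tables or fewer of them, was −0.92 and −0.95 in the fits that use the WT replicate 1 table, and did not pass without either Pcgf5KO library (adjusted p up to 0.0556).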

How the results depend on the processing

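Of the member log2 fold changes under all alternatives, 654 kept direction and side of the threshold, 100 came to pass it, 73 no longer passed and 17 reversed. The 7 results below are in the order Pcgf3KO, Pcgf5KO and DKO against WT, DKO against Pcgf3KO, DKO against Pcgf5KO, Pcgf5KO against Pcgf3KO, and the interaction, for which 370, 468, 505, 272, 357, 22 and 594 genes were called by edgeR. The cause of each shift was not tested.

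Without the filter on low counts 1105, 1222, 1474, 1355, 2312, 224 and 1904 genes were called, members lower were 3, 6, 7 and 2 in the first 4, and the interaction had 3 members higher and 2 lower. With only the groups compared in the fit, 3030, 4882, 329, 35, 7 and 1874 genes were called in the first 6 and members lower were 5, 8, 1, 0, 0 and 4, while members higher were 0 in DKO against WT and 1 in Pcgf5KO against Pcgf3KO. In that fit the DKO calls of Fgf4, Etv5, Dusp5, Dusp14 and Dusp16 against WT were lost. Scaling by the library total gave 1 member higher in Pcgf3KO and 1 in Pcgf5KO against WT and 2 in the interaction, and DESeq2 size factors 1 in Pcgf5KO. DESeq2 gave 2 members lower in Pcgf3KO against WT, 6 in place of 4 in DKO against WT (Etv4 and Spry4 added) and 2 in DKO against Pcgf3KO, 2 members higher in the interaction, and 793 and 75 genes for DKO against Pcgf5KO and Pcgf5KO against Pcgf3KO. With 8 libraries, where 2702 genes were tested and members could not be counted, 149, 233, 219, 14, 64, 5 and 187 genes were called, and 51, 59, 94, 12, 13, 3 and 60 without WT replicate 2.

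With the replicate number as a block, 499, 1532, 62 and 1305 genes were called in the last 4 results, members lower in DKO against Pcgf3KO were 2 and members higher in the interaction 2. The numbers do not pair the samples: the differences between replicates correlated at −0.014 (Pcgf3KO and Pcgf5KO), 0.135 (Pcgf3KO and DKO) and 0.01 (Pcgf5KO and DKO).

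Leaving out each edited library in turn gave 46 to 3167, 37 to 4119, 165 to 5379, 7 to 5571, 3 to 6583, 3 to 1909 and 35 to 5712 genes. Members higher ran from 0 to 2, 1 to 2, 0 to 2, 0 to 1, 0 to 3, 0 to 1 and 0 to 6, and members lower from 0 to 5, 0 to 8, 0 to 7, 0 to 7, 0 to 6, 0 to 4 and 0 to 2. The gene counts were highest without a DKO library.

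The 17 reversed values did not pass in the fit with all 7 libraries. With library totals alone they were Spry2 in DKO against WT (0.023), and Dusp6 (0.023) and Dusp16 (0.017) in DKO against Pcgf5KO. The others came from leaving out a library, with these ranges. Spry2 in DKO against WT ran from −0.034 to 0.012. In DKO against Pcgf3KO, Fgf4 ran from −0.092 to 0.14, Dusp4 from −0.76 to 0.25, Dusp6 from −0.23 to 0.097 and Spry4 from −0.20 to 0.25. In DKO against Pcgf5KO, Fgf4 ran from −0.038 to 0.20, Dusp4 from −0.37 to 0.63, Dusp6 from −0.22 to 0.10, Etv4 from −0.47 to 0.12 and Spry4 from −0.087 to 0.36. These ends are the fits without 1 DKO library or the other. Dusp6 in Pcgf5KO against Pcgf3KO ran from −0.035 to 0.032. In the interaction Dusp5 ran from −0.37 to 0.045 and Etv4 from −0.078 to 0.51.

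The members were at 15.1 CPM or more in each full library. Against the same WT library, the standard error in Pcgf3KO went from 0.29 to 0.087 for Dusp4, from 0.19 to 0.068 for Etv4 and from 0.15 to 0.060 for Spry4 without DKO replicate 1.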
